A study of Mus musculus with 16 samples.

Results

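Genes of the basement membrane and of the rest of the extracellular matrix were followed across 16 arrays of mouse retina. The set held 50 named genes, taken by their symbol or an older symbol (such as Lamb1-1 for Lamb1) in the scanner files, with the brightest probe standing for each gene. Of the 50, 49 were found, on 117 probes, among 23342 genes measured in all. They were 20 of 21 basement membrane genes, 20 fibrillar and interstitial matrix genes, 5 matricellular genes (proteins of the matrix that act on cells more than they build it) and 4 genes of collagen enzymes and their chaperone. Perlecan (Hspg2) was not found under its symbol. All 49 had a probe well above background on at least 3 arrays.

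C57Bl6 pups had been injected into the vitreous at 8 days with 1 µg of VEGF-A (5 samples), 4 µg of Dll4-Fc (4 samples) or 4 µg of hFc, the Fc part alone (4 samples), and total RNA of the retina was taken 24 h later. A further 3 samples carry the label VEGF Trap, a soluble receptor that binds VEGF-A, for which the labels state neither dose nor age. Soluble Dll4-Fc can block signalling from the vessel ligand Dll4 to Notch receptors. VEGF-A and Dll4-Fc were given in unequal amounts, and every animal was wild type as far as the labels say. On every array the Cy3 channel held a sample and the Cy5 channel a pool of RNA common to all arrays, and no dye was swapped. Values below are log2 of sample over pool, so 1 unit is a doubling, and a level of a gene has meaning only against the same gene on other arrays. Whether samples of a group are separate animals is not stated in the labels, so p-values measure the spread between these samples, which may be technical. An unexplained code in the titles begins alike for hFc 1 and hFc 2, so results against hFc were also computed with their mean as 1 sample: 13 members were then called with VEGF-A, without Col4a2, Col8a1 and Bgn (0.87, 0.60 and 0.53, adjusted p = 0.0922, 0.0559 and 0.0822).

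A basement membrane is the thin sheet on which endothelial and glial cells rest. It is built from a laminin network (trimers of an α, a β and a γ chain) and a type IV collagen network, which nidogens and the heparan sulphate proteoglycans perlecan and agrin tie together. In the retina it wraps each vessel and forms the inner limiting membrane at the vitreous. Interstitial matrix, made of fibrillar collagens, fibronectin, fibrillin, fibulins and small leucine-rich proteoglycans, is sparse in the retina and rich in the sclera, the choroid and the ciliary body.

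Some members called in a comparison were read by more than 1 probe, and sequences of some of these probes are printed here. The probes were compared with each other and were not placed on a transcript. The brightest Lama4 probe and its neighbour shared 29 bases (in capitals) and together spanned 91 bases with a single frame free of stop codons:
Lama4 A_52_P7554: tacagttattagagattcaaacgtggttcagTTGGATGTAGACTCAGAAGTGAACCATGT
Lama4 A_51_P212420: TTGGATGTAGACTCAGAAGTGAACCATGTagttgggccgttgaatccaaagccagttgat
The Col8a1 probes shared 26 bases (in capitals):
Col8a1 A_51_P425809: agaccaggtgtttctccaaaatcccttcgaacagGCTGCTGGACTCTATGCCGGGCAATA
Col8a1 A_52_P282058: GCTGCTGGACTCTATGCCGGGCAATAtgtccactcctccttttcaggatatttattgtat
Of the remaining probes, that of Col4a1 repeated the call of a brighter probe, and that of Loxl2 gave a larger change than the brighter probe did:
Col4a1 A_52_P518827: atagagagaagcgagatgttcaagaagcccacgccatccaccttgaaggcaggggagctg
Loxl2 A_51_P275949: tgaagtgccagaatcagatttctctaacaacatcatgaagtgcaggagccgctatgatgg

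Col4a1 and Col4a2, the chains of the ubiquitous type IV collagen, are neighbours transcribed away from each other. In RefSeq (build GRCm38.p6) the Col4a1 window of 300 bases around its start lies at chr8:11312777-11313076 on the minus strand, and that of Col4a2 at chr8:11312555-11312854 on the plus strand. The windows are shown because the genes share their promoter region and moved together below, and the 78 bases that both hold are in capitals, each on its own strand:
Col4a1 promoter: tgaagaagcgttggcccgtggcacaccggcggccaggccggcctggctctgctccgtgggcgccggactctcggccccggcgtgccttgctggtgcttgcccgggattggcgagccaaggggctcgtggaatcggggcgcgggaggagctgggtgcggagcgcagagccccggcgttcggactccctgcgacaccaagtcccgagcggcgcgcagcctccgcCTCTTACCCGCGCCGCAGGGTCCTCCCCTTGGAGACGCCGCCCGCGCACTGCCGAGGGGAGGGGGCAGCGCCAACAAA
Col4a2 promoter: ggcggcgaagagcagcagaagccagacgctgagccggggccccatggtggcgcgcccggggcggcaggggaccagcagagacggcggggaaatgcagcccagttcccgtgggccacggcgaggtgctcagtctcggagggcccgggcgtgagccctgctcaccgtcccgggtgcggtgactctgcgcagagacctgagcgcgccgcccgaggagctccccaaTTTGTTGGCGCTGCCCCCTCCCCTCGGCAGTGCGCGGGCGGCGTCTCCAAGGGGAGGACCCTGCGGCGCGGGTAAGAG
The letters CCAAT, read on the other strand as ATTGG, occurred 1 time in each window, and occur in 37.4% of the 32851 promoter windows of the table. The GC box GGGCGG, read on the other strand as CCGCCC, occurred 1 time in the Col4a1 window and 3 times in that of Col4a2, and occurs in 35.7% of all windows. These matches describe the letters alone.

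Median signals per array lay between 588 and 910 in Cy3, and 84.9 to 91% of spots were well above background. Groups held 3 to 5 arrays, and some members varied widely between arrays of a group (below). Both limit the precision. On the 4 hFc arrays 2350 to 2599 spots had been marked as outliers and were left out, against 12 to 213 on the other arrays. As a result Col5a1 and Fbln2 had no hFc value, and 4 members (Col4a4, Col6a2, Postn and Loxl2) had a value on 1 hFc array, and Col4a6 and Emilin1 on 2. Array hFc 4 stood apart from hFc 1 to 3 in several members and in lens genes (below), so results against hFc that it moved most are also given without it. All hFc arrays shared a slide and all Dll4-Fc arrays another, so for those groups slide and treatment cannot be told apart. The comparisons with hFc share its arrays. Endothelial genes were detected throughout, and of 12 listed none was above background on fewer than 3 arrays.

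With VEGF-A, 8 of 20 basement membrane genes rose. Against hFc, 15 members rose and 1 fell of 47 tested (limma, Benjamini-Hochberg adjusted p at most 0.05 over all genes), where 5.89% of all 22772 genes tested rose and 4.3% fell. Within the basement membrane group none fell, and 10 had an unadjusted p under 0.05. The share of all genes under an unadjusted p of 0.05 was not computed, here or below. The risers were 3 laminin chains (Lama4, Lamb1, Lamc1), Col4a1 and Col4a2, both nidogens, and Col15a1, a collagen of vessel and muscle basement membranes. The group's median change was 0.48, beside −0.05 over all genes. In whole retina, more cells of a type and more RNA per cell cannot be told apart.

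Lama4, the α chain of the laminins of endothelial basement membranes, read −0.82, −0.76, −0.86 and −0.81 on hFc 1 to 4, −0.45, −0.32, −0.59 and −0.61 on Dll4-Fc 1 to 4, 1.22, 1.38, 1.05, 1.09 and 1.1 on VEGF-A 1 to 5 and −1.56, −1.47 and −1.57 on VEGF Trap 1 to 3. All 5 VEGF-A arrays lay at 1.05 or above, all hFc and Dll4-Fc arrays lay from −0.86 to −0.32, and the VEGF Trap arrays below every other. Lama4 was 3.94-fold higher with VEGF-A than with hFc (log2 1.98, SE 0.078, adjusted p = 2.25e-10). Its neighbouring probe gave 2.08 and a further probe 2.09, while a dim probe gave −0.14. Both brighter probes were called too (adjusted p = 1.45e-09 and 2.96e-10 over 39787 probes), and the dim probe was not called in any comparison.

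Lamc1, the γ chain of most laminins, read −0.71, −1.02 and −0.21 on hFc 2 to 4 (no value on hFc 1), −0.46, −0.42, −0.62 and −0.5 on Dll4-Fc 1 to 4, 1.08, 1.09, 0.71, 0.92 and 1.14 on VEGF-A 1 to 5 and −0.96, −0.68 and −1.01 on VEGF Trap 1 to 3. The VEGF-A arrays did not overlap any other group, and the hFc arrays spanned the range of the Dll4-Fc and VEGF Trap arrays. The change against hFc was 1.63 (SE 0.156, adjusted p = 5.41e-06). Lamb1, the β chain that pairs with Lama4 and Lamc1 in vessel laminin, averaged −0.76 ± 0.28 (SD, n = 4) with hFc and 0.49 ± 0.23 (SD, n = 5) with VEGF-A. It rose by 1.25 (SE 0.165, adjusted p = 9.52e-05).

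Col4a1 read −0.95, −0.71, −1.01 and 0.81 on hFc 1 to 4, −0.56, −0.59, −0.63 and −0.58 on Dll4-Fc 1 to 4, 1.34, 1.35, 0.95, 0.94 and 1 on VEGF-A 1 to 5 and −1.39, −1.38 and −1.4 on VEGF Trap 1 to 3. The 3 VEGF Trap arrays were nearly equal and were the lowest, the VEGF-A arrays were the highest, and hFc 4 alone among the controls came close to them. Col4a1 rose by 1.58 with VEGF-A (SE 0.277, adjusted p = 0.00133), and by 2.01 without hFc 4 (SE 0.108, adjusted p = 2.1e-08). Its other probe, printed above, gave 1.14. Col4a2 rose by 0.99 (SE 0.269, adjusted p = 0.0284), and by 1.4 without hFc 4 (adjusted p = 7.12e-07). The Col4a2 call was lost when hFc 1, 2 or 3, or VEGF-A 1 or 2, was left out.

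Nidogens link the laminin and collagen networks. Nid2 read −1.45, −1.05, −0.87 and −0.62 on hFc 1 to 4, −0.27, −0.49, −0.59 and −0.01 on Dll4-Fc 1 to 4, 1.02, 1.08, 1.01, 0.93 and 1 on VEGF-A 1 to 5 and −0.84, −0.52 and −0.91 on VEGF Trap 1 to 3. The VEGF-A arrays were tightly grouped around 1.01 and stood clear of all others, and the Dll4-Fc arrays lay above all hFc arrays. Nid2 rose by 2.01 with VEGF-A (SE 0.151, adjusted p = 2.02e-07), 4.02-fold, and its other probe by 1.99. Nid1 read −0.94, −0.74, −0.83 and 0.99 on hFc 1 to 4, −0.59, −0.47, −0.55 and −0.33 on Dll4-Fc 1 to 4, 0.8, 1.23, 1, 0.93 and 0.85 on VEGF-A 1 to 5 and −1.62, −1.58 and −1.5 on VEGF Trap 1 to 3. The value of hFc 4 lay among the VEGF-A arrays, and VEGF Trap was lowest. Nid1 rose by 1.34 (SE 0.294, adjusted p = 0.00761), and by 1.80 without hFc 4 (adjusted p = 2.32e-08). Without 3 arrays described below (hFc 1, VEGF-A 4 and VEGF-A 5) the Nid1 call was lost (1.2, adjusted p = 0.0746), as was that of Col4a2 (0.92, adjusted p = 0.142).

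Col15a1 read −1.06, −0.99, −1.18 and −0.93 on hFc 1 to 4, −0.9, −0.46, −0.74 and −0.98 on Dll4-Fc 1 to 4, 1.48, 1.36, 0.49, 1.14 and 1.3 on VEGF-A 1 to 5 and −1.54, −1.46 and −1.71 on VEGF Trap 1 to 3. VEGF-A 3 was the lowest of its group and still above every array of the other groups. The change of 2.19 (SE 0.168, adjusted p = 2.43e-07) was the largest rise among the members in this comparison, 4.57-fold. The gene's other probe, far dimmer, gave 0.29 and was not called.

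**Figure D1:**
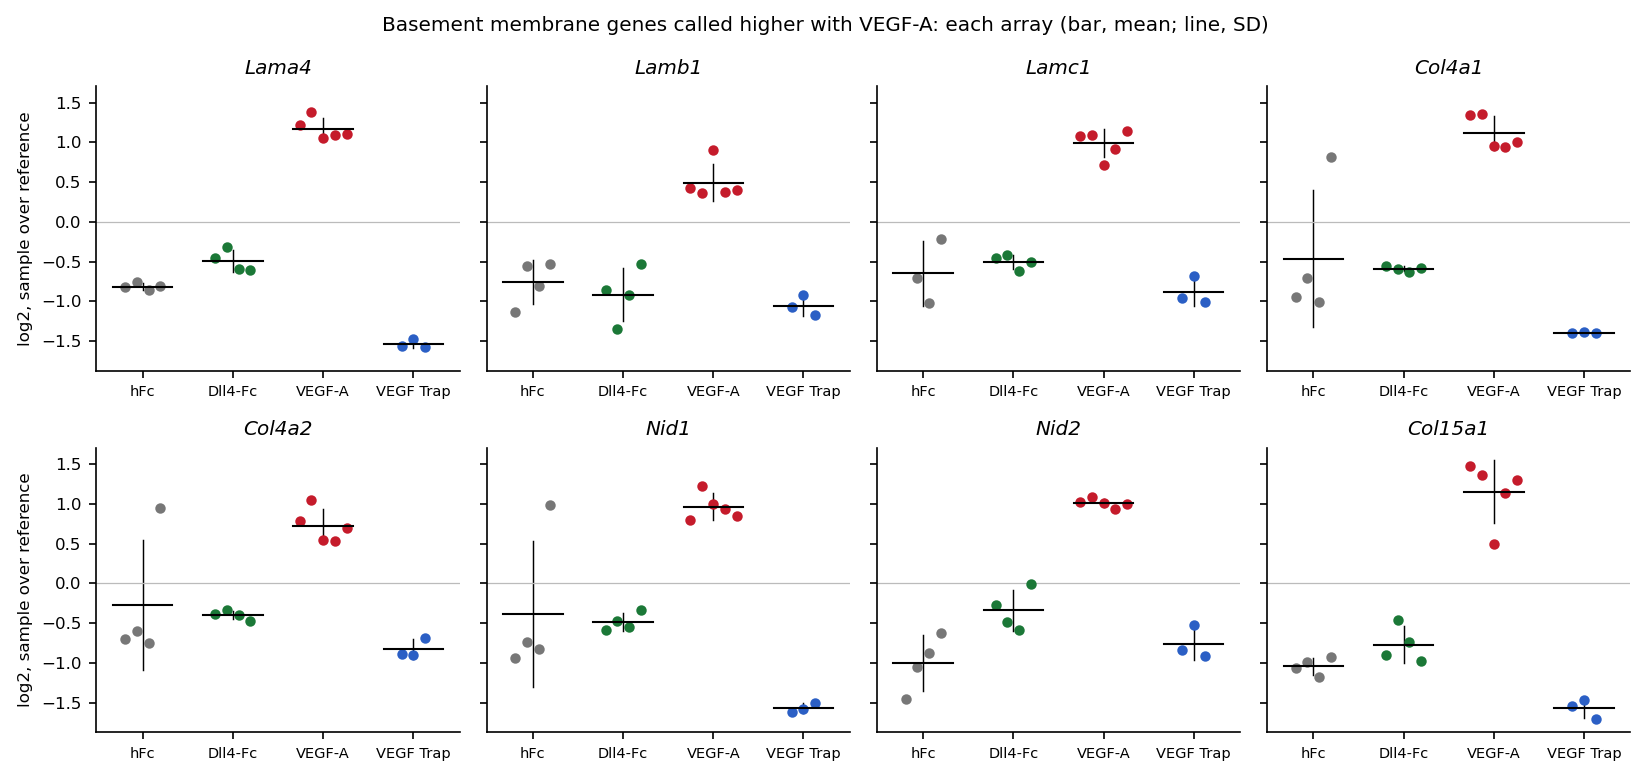
Log2 of sample over reference pool (vertical axis) for the 8 basement membrane genes called higher with VEGF-A than with hFc, by treatment group, each point an array in replicate order, with the group mean as a bar and the SD as a line. The 5 VEGF-A arrays lie above all others in every panel except those of Col4a2 and Nid1, where hFc 4 reaches 0.95 and 0.99; for Col4a1 it reaches 0.81, just under them.

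The other 12 tested genes of the group did not pass the threshold, with changes from −0.61 (Lama2) to 0.75 (Lama5). Among the type IV chains, Col4a3, Col4a4, Col4a5 and Col4a6, which form networks of more specialised membranes, gave −0.14, 0.46, −0.28 and 0.49, beside 1.58 and 0.99 for Col4a1 and Col4a2. With outlier spots kept, Col4a4 gave −0.02 and Col4a6 −0.20, and the other 3 Col4a6 probes gave −0.32, −0.38 and −0.31. Lama1, Lama2, Lama3, Lamb2 and Lamc3, chains of other laminins, gave −0.30, −0.61, −0.09, 0.05 and −0.18. Lama5, another α chain of vessel laminins, averaged −0.32 ± 0.42 (SD, n = 4) with hFc and 0.44 ± 0.40 (SD, n = 5) with VEGF-A, and its 95% interval of 0.18 to 1.33 came with an adjusted p of 0.0931. Agrn and Col18a1, proteoglycans of the inner limiting membrane and of vessels, gave −0.04 (interval −0.44 to 0.35) and 0.06 (interval −0.62 to 0.75, and 0.45 with outlier spots kept, adjusted p = 0.494).

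Markers of vessel cells were read in the same comparison, where 5.89% of all genes rose and 4.3% fell. Of 12 endothelial markers 9 rose and 2 fell with VEGF-A against hFc (median 1.12), and the mean of the 9 markers measured on every array was 0.49 to 0.62 with VEGF-A, −0.31 to −0.18 with hFc, −0.13 to 0.01 with Dll4-Fc and −0.91 to −0.78 with VEGF Trap. Of 11 mural markers 4 rose and 2 fell (median 0.34), from 4.25 (Acta2) and 3.96 (Tagln) to −2.13 (Kcnj8), and their mean was 0.30 to 0.38 with VEGF-A against −0.66 to −0.37 with hFc. On hFc 4, where Col4a1, Col4a2 and Nid1 were high, the endothelial mean was −0.31 and the mural mean −0.37. The part of vessel cell number in the rise of the members was not tested.

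**Figure D2:**
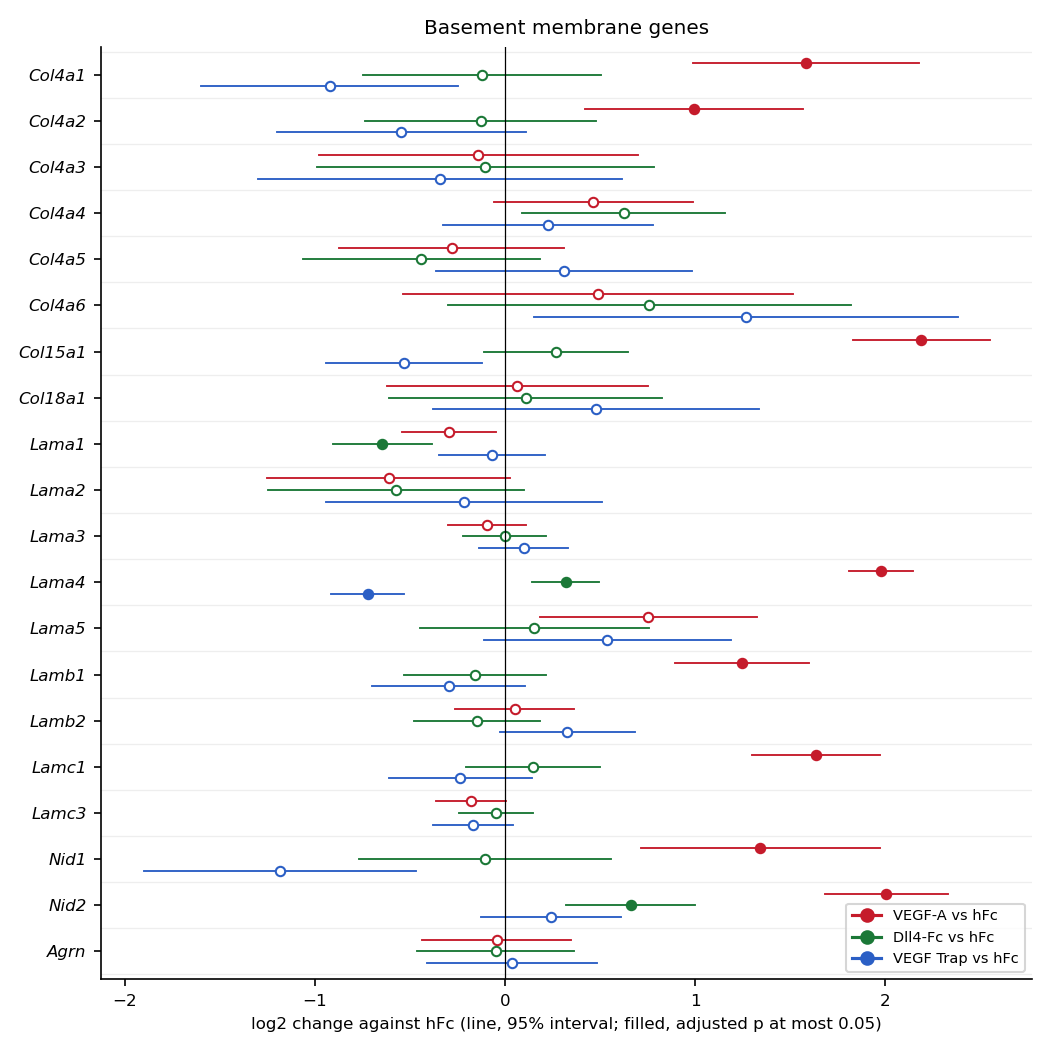
Log2 change against hFc (horizontal axis) of the 20 measured basement membrane genes with VEGF-A (red), Dll4-Fc (green) and VEGF Trap (blue), with 95% intervals, filled where the adjusted p was at most 0.05. The 8 red points that are filled run from 0.99 (Col4a2) to 2.19 (Col15a1), while most Dll4-Fc and VEGF Trap intervals cross 0.

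The log2 differences between VEGF-A and VEGF Trap use no hFc array, and share the VEGF-A arrays with the comparison above. Their SE and p-values come from the fit of 4 groups, so the spread of the hFc arrays, hFc 4 among them, enters both. The comparison set the added factor against its capture. Of 49 members 16 were higher with VEGF-A and 4 lower, where 10.6% of all 23342 genes were higher and 8.68% lower. Of 20 basement membrane genes, 8 were called, all higher: Lama4, Lamb1, Lamc1, Col4a1, Col4a2, Nid1, Nid2 and Col15a1. Lama4 differed by 2.70 (SE 0.085, adjusted p = 1.84e-11), Col15a1 by 2.72 (SE 0.183, adjusted p = 4.59e-08), Nid1 by 2.53 (SE 0.320, adjusted p = 4.77e-05), Col4a1 by 2.50 (SE 0.302, adjusted p = 2.88e-05) and Lamc1 by 1.87 (SE 0.156, adjusted p = 1.03e-06). The median was 0.21 over the basement membrane genes, −0.25 over the interstitial genes and −0.03 over all genes.

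Both groups lay on the same slides, 2 arrays each on the first shared slide and 3 against 1 on the second. All 20 called members kept their sign within both slides, and 18 stayed called with slide as a block, as Col6a2 and Loxl2 did not. Since the 20 were called on these same arrays, their agreement in sign is no separate support. With the block 16 members were higher and 3 lower, because Col6a3 was then called too, and 3229 of 23342 genes were called. For Lama4 the difference was 2.81 within the first slide and 2.65 within the second, and for Col4a1 2.73 and 2.36.

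**Figure D3:**
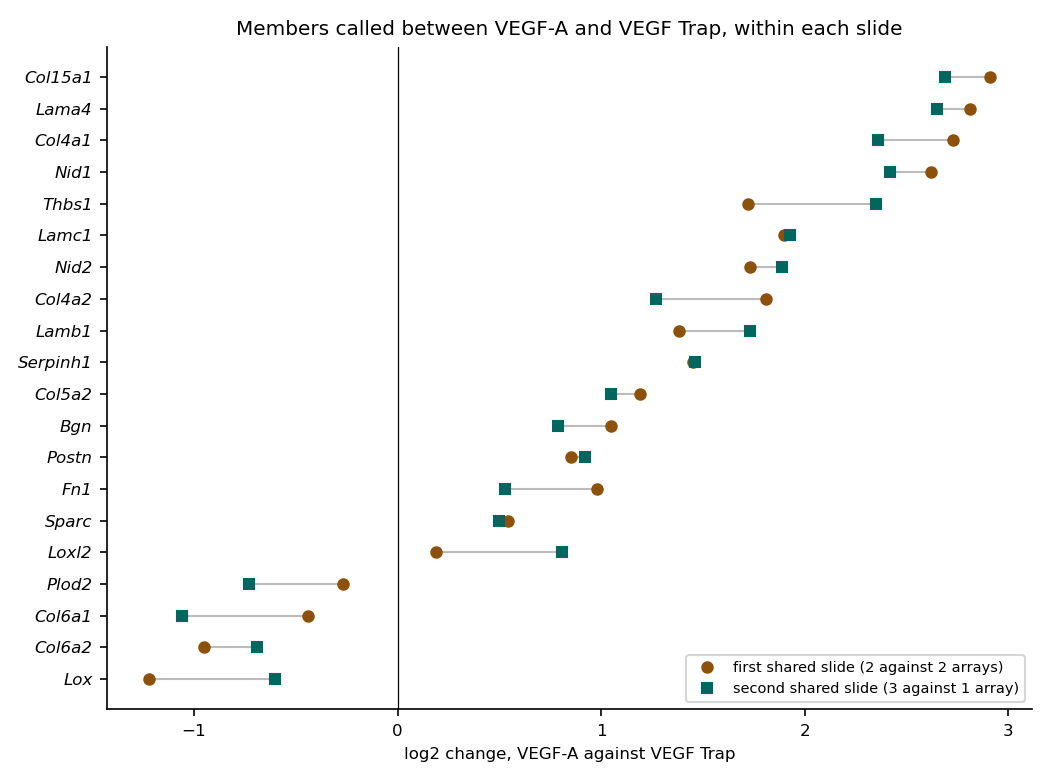
Log2 difference between VEGF-A and VEGF Trap (horizontal axis) for the 20 members called in that comparison, computed within the first shared slide (circles) and within the second (squares). Every gene keeps its side of 0, with Col15a1 at 2.91 and 2.69 at the top and Lox at −1.22 and −0.60 at the bottom.

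VEGF Trap against hFc gave few calls. Of 47 members Lama4 fell and Plod2 rose, where 2.43% of all genes fell and 1.3% rose. Lama4 fell by 0.72 (SE 0.089, adjusted p = 0.000673), its 3 VEGF Trap arrays lying below all hFc arrays, and 3 of its 4 probes gave −0.72, −0.58 and −0.51. Nid1 differed by −1.18 (adjusted p = 0.0641) and Col4a1 by −0.92 (adjusted p = 0.115). Without hFc 4 their differences shrank to −0.73 and −0.50 but passed the threshold (adjusted p = 0.00495 and 0.0487), and 4 members were called in all. Nid2 gave 0.24 (interval −0.13 to 0.61), Lamb1 −0.30 (interval −0.70 to 0.11) and Lamc1 −0.23 (interval −0.61 to 0.14). Of the 12 endothelial markers 10 fell in this comparison, with a median of −0.62.

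Dll4-Fc against hFc gave 5 calls, of which Lama4, Nid2 and Col8a1 had also risen with VEGF-A. Of 47 tested 4 rose (Col8a1, Col3a1, Nid2 and Lama4) and 1 fell (Lama1), where 3.06% of all genes rose and 1.52% fell. Col8a1, a short-chain network collagen of vessel walls and of Descemet's membrane in the cornea, read −1.01, −0.31, −0.41 and −0.53 on hFc 1 to 4, 0.34, 0.59, 0.53 and 0.61 on Dll4-Fc 1 to 4, 0.22, −0.05, 0.18, 0.22 and −0.25 on VEGF-A 1 to 5 and 0.34, 0.08 and −0.59 on VEGF Trap 1 to 3. The Dll4-Fc arrays were above every hFc array, with hFc 1 lowest of all. Col8a1 rose by 1.08 (SE 0.191, adjusted p = 0.00255) with Dll4-Fc, and the probe that shares 26 bases with it rose by 1.15. With VEGF-A it rose by 0.63 (SE 0.181, adjusted p = 0.0393), a call lost in 7 of the fits that left out 1 array.

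Col3a1, the fibrillar collagen of vessel walls and soft tissue, read −0.25, −0.06, −0.19 and −0.14 on hFc 1 to 4, 0.5, 0.59, 0.79 and 1.07 on Dll4-Fc 1 to 4, −0.52, −0.42, −0.24, −0.16 and −0.62 on VEGF-A 1 to 5 and −0.44, 0.27 and −0.56 on VEGF Trap 1 to 3. All 4 Dll4-Fc arrays exceeded all other arrays. Against hFc Col3a1 rose by 0.90 (SE 0.170, adjusted p = 0.00444), and it was 1.13 higher than with VEGF-A (SE 0.161, adjusted p = 0.000133). A far dimmer probe gave 0.35 against hFc and was not called. The type I collagen chains Col1a2 and Col1a1 gave 0.19 and 0.81 (for Col1a1 an interval of 0.10 to 1.53, adjusted p = 0.292).

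Lama1, the α chain of the inner limiting membrane's laminin, read −0.03, 0.05, 0.14 and 0.51 on hFc 1 to 4, −0.53, −0.41, −0.6 and −0.36 on Dll4-Fc 1 to 4, 0.06, 0.06, −0.18, −0.36 and −0.22 on VEGF-A 1 to 5 and −0.01, 0.19 and 0.12 on VEGF Trap 1 to 3. The Dll4-Fc arrays were the lowest, with VEGF-A 4 level with the highest of them. Lama1 fell by 0.65 with Dll4-Fc (SE 0.121, adjusted p = 0.00426). Nid2 rose by 0.66 (SE 0.160, adjusted p = 0.0255) and Lama4 by 0.32 (SE 0.083, adjusted p = 0.0384). Both calls were lost with hFc 1 and hFc 2 averaged (0.58 and 0.33, adjusted p = 0.0629 and 0.0716) and when hFc 1, hFc 2 or Dll4-Fc 1 was left out, that of Nid2 also without Dll4-Fc 4 and that of Lama4 also without hFc 3, hFc 4 or Dll4-Fc 2. The Lama1 call was lost with normexp and loess, with Cy3 alone and with the mean over probes. Over all genes 3.06% rose and 1.52% fell with Dll4-Fc against hFc. In the same comparison 6 of 8 markers of Müller glia, the cells that border the inner limiting membrane, fell (median −0.87). Of 7 microglia markers 6 rose and 1 fell. The part of these cells in the changes of the members was not tested.

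Dll4-Fc against VEGF-A put 15 members lower with Dll4-Fc and 2 higher (Col3a1 and Col1a2) of 49, where 6.91% of all genes were lower and 6.35% higher. The 8 basement membrane genes above were all among the lower, from −1.12 (Col4a2, adjusted p = 0.0102) to −1.92 (Col15a1, adjusted p = 9.47e-07). This comparison shares the VEGF-A arrays with those above. Thbs1 gave −2.15, Serpinh1 −1.13, Postn −0.65, Fn1 −0.58, Col5a2 −0.56, Sparc −0.47 and Tnc −0.44, all called. The calls of Tnc, Fn1, Postn and Col1a2 were lost with the mean over probes, and none of their other probes was called. That of Tnc was also lost without Dll4-Fc 1, 3 or 4 or VEGF-A 1, 2 or 4. The Col1a2 call was also lost without Dll4-Fc 3 or 4, and its other probe, far dimmer, gave −0.21. Sparc was not called with Cy3 alone.

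The fibrillar and interstitial genes split. With VEGF-A against hFc 5 of 18 tested rose (Col1a1, Fn1, Col5a2, Col8a1 and Bgn) and none fell, where 5.89% of all genes rose and 4.3% fell. Of the 18, 6 had an unadjusted p under 0.05, and the median was 0.25. Fn1, the fibronectin that cells lay down on new vessels, rose by 1.01 (SE 0.149, adjusted p = 0.000284), from −0.54 ± 0.27 (SD, n = 4) to 0.47 ± 0.22 (SD, n = 5). Col5a2, a chain of the minor fibrillar collagen that seeds type I fibrils, rose by 0.86 (SE 0.089, adjusted p = 6.85e-06), the VEGF-A arrays lying from 0.51 to 0.63. Col1a1 rose by 1.24 (SE 0.319, adjusted p = 0.0219) while Col1a2, its partner chain in type I collagen, gave −0.20 (interval −0.42 to 0.03). Of the 4 Col1a1 probes, 3 gave 1.24, 1.26 and 1.24 and the dimmest gave 0.16. Bgn (biglycan) rose by 0.54 (SE 0.159, adjusted p = 0.0432), a call lost without hFc 1, 2 or 3 or VEGF-A 1, 2, 4 or 5. The Col1a1 call was lost without hFc 1, hFc 3, VEGF-A 1 or VEGF-A 2, and that of Fn1 with the mean over probes.

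Type VI collagen, a beaded microfibril that borders basement membranes, had 2 chains lower with VEGF-A than with VEGF Trap. Col6a1 read 0.17, −0.46, −0.35 and −0.03 on hFc 1 to 4, −0.38, 0.13, −0.4 and −0.49 on Dll4-Fc 1 to 4, −0.06, 0.16, −0.53, −0.46 and −0.33 on VEGF-A 1 to 5 and 0.51, 0.46 and 0.61 on VEGF Trap 1 to 3. The VEGF Trap arrays were the highest, and the other groups overlapped. With VEGF-A against VEGF Trap its difference was −0.77 (SE 0.183, adjusted p = 0.00805). Col6a2 read −0.07 on hFc 4, the only hFc array with a value, −0.17, 0.16, −0.08 and −0.27 on Dll4-Fc 1 to 4, −0.06, −1.27, −0.19, −0.37 and −0.16 on VEGF-A 1 to 5 and 0.22, 0.36 and 0.45 on VEGF Trap 1 to 3. VEGF-A 2 stood far below the rest of its group. The Col6a2 difference of −0.75 (SE 0.233, adjusted p = 0.0423) lost its call when VEGF-A 4 or any VEGF Trap array was left out. Col6a3, the third chain, gave 1.4 in the opposite direction without passing (adjusted p = 0.0514), and its 4 dimmer probes gave between −0.25 and 0.18.

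Against hFc, the 18 tested interstitial genes had a median of 0.53 with VEGF Trap, none called and 6 with an unadjusted p under 0.05. With Dll4-Fc the median was 0.44, with 2 called and 8 with an unadjusted p under 0.05 (limma), and with VEGF-A it was 0.25. Of all genes, 1.3% rose and 2.43% fell with VEGF Trap, and 3.06% rose and 1.52% fell with Dll4-Fc. Medians over all genes were −0.02 with VEGF Trap, −0.02 with Dll4-Fc and −0.05 with VEGF-A. The mean of the 16 interstitial genes measured on every array was lowest on hFc 1, at −0.92. Intervals with VEGF Trap were wide. Col12a1, a fibril-associated collagen, gave 1.51 (interval 0.58 to 2.45, adjusted p = 0.0680) on a dim probe, Fbln1 1.47 (interval −0.44 to 3.38) and Lum 0.98 (interval −0.92 to 2.89). With normexp and loess Col12a1 gave 0.41 and was called (adjusted p = 0.0199), and its other probe, dimmer still, gave −0.42. Col8a2, the partner chain of Col8a1, gave 0.23, 1.09 and 0.88 with VEGF-A, Dll4-Fc and VEGF Trap (adjusted p = 0.686, 0.0655 and 0.150). Fbn1 (fibrillin 1) gave 0.34, 0.50 and 0.55 and Emilin1, a glycoprotein of elastic fibres, 0.27, 0.32 and −0.06, none called. Emilin1 had a value on 2 hFc arrays, and its call between Dll4-Fc or VEGF-A and hFc was gained with normexp and loess (0.41 and 0.37, adjusted p = 0.0225 and 0.0191). With outlier spots kept, Col5a1 read −1.01, −0.26, −0.16 and 0.22 and Fbln2 −1.05, −0.11, −0.21 and 0.31 on hFc 1 to 4, where they otherwise had no value.

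**Figure D4:**
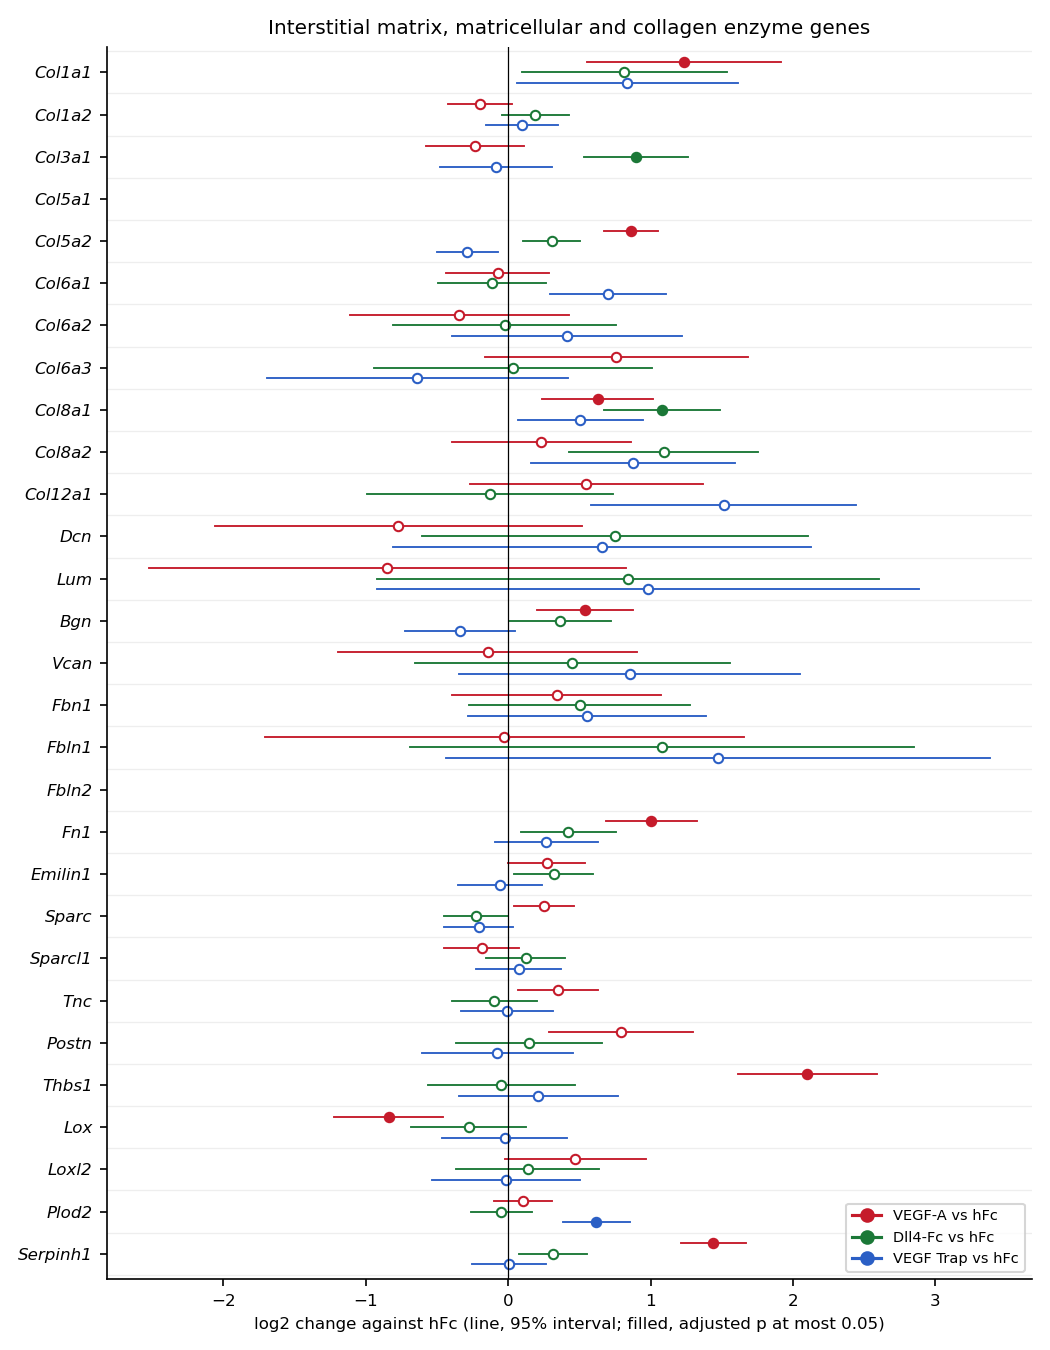
Log2 change against hFc (horizontal axis) of the 29 other measured members with VEGF-A (red), Dll4-Fc (green) and VEGF Trap (blue), with 95% intervals, filled where the adjusted p was at most 0.05. Thbs1 and Serpinh1 stand out with VEGF-A at 2.1 and 1.44, while Lum, Dcn and Fbln1 have intervals that span 0 widely, and Col5a1 and Fbln2 have no hFc value.

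Of the matricellular genes, Thbs1 (thrombospondin 1, an inhibitor of vessel growth) changed most. It read −1.63, −0.77, −0.79 and −0.64 on hFc 1 to 4, −0.81, −1.22, −0.7 and −1.29 on Dll4-Fc 1 to 4, 1.46, 1, 0.85, 1.29 and 1.11 on VEGF-A 1 to 5 and −0.28, −0.68 and −1.27 on VEGF Trap 1 to 3. The VEGF-A arrays were all above 0 and all others below it. Thbs1 rose by 2.1 with VEGF-A against hFc (SE 0.229, adjusted p = 1.23e-05) and was 1.89 higher than with VEGF Trap (SE 0.249, adjusted p = 7.35e-05), and both of its other probes rose too, by 1.85 and 1.91 against hFc. Postn (periostin) was 0.87 higher with VEGF-A than with VEGF Trap (adjusted p = 0.00198). Its other probe, far dimmer, gave −0.07 there and was not called. The call was lost with the mean over probes and on the second shared slide alone. Postn had a value on 1 hFc array and gave 0.79 against it (adjusted p = 0.0503). With outlier spots kept Postn read −0.54, −0.23, −0.17 and −0.62 on hFc 1 to 4 and 0.40 to 0.98 on the VEGF-A arrays, and it was called against hFc (1.01, adjusted p = 0.000173), as with the series table (1.01, adjusted p = 8.51e-05). Sparc, a collagen-binding protein, was 0.46 higher than with VEGF Trap (adjusted p = 0.00789) and gave 0.25 against hFc (interval 0.04 to 0.46, adjusted p = 0.134). Tnc and Sparcl1 gave 0.35 and −0.19 against hFc, neither called. With Dll4-Fc or VEGF Trap against hFc none of the 5 was called, 1 and 0 of them having an unadjusted p under 0.05. Of all genes, 3.06% rose and 1.52% fell with Dll4-Fc, and 1.3% rose and 2.43% fell with VEGF Trap.

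The enzyme and chaperone genes moved in opposite directions. Serpinh1 (the collagen chaperone HSP47) averaged −0.68 ± 0.05 (SD, n = 4) with hFc, −0.37 ± 0.23 (SD, n = 4) with Dll4-Fc, 0.76 ± 0.18 (SD, n = 5) with VEGF-A and −0.67 ± 0.06 (SD, n = 3) with VEGF Trap. Only the VEGF-A arrays were above 0. It rose by 1.44 with VEGF-A against hFc (SE 0.106, adjusted p = 1.62e-07). Lox (lysyl oxidase, which cross-links collagen and elastin) read 0.01, 0.46, 0.31 and 0.24 on hFc 1 to 4, 0.08, −0.34, 0.02 and 0.15 on Dll4-Fc 1 to 4, −0.91, −1.15, −0.25, −0.28 and −0.33 on VEGF-A 1 to 5 and 0.13, 0.25 and 0.31 on VEGF Trap 1 to 3. The VEGF-A arrays were lowest apart from Dll4-Fc 2 at −0.34, with VEGF-A 1 and 2, on the first shared slide, lower than VEGF-A 3 to 5. Lox fell by 0.84 with VEGF-A against hFc (SE 0.179, adjusted p = 0.00631) and differed by −0.81 from VEGF Trap (SE 0.195, adjusted p = 0.00875).

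Plod2 (a lysyl hydroxylase that prepares collagen for cross-linking) read −0.12, −0.11, −0.26 and 0.07 on hFc 1 to 4, −0.11, −0.13, −0.18 and −0.2 on Dll4-Fc 1 to 4, 0.23, 0.19, −0.21, −0.11 and −0.12 on VEGF-A 1 to 5 and 0.44, 0.52 and 0.59 on VEGF Trap 1 to 3. The VEGF Trap arrays were above all others, and the other groups overlapped. Plod2 rose by 0.62 with VEGF Trap against hFc (SE 0.109, adjusted p = 0.00757) and differed by −0.52 between VEGF-A and VEGF Trap (SE 0.104, adjusted p = 0.00272). Loxl2, a related cross-linker, gave 0.47 against its lone hFc value on the brighter probe (adjusted p = 0.234) and 0.70 with outlier spots kept (adjusted p = 0.00324), while the probe printed above gave 1.33 (adjusted p = 4.16e-05 over 39787 probes).

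Genes around the members were taken from lists. Of 22 matrix receptors 6 rose and 2 fell with VEGF-A against hFc, where 5.89% of all genes rose and 4.3% fell. Itgb3, partner of αv in the vitronectin receptor, rose by 3.01 (adjusted p = 8.11e-12), Itga1, of the collagen IV and laminin receptor, by 2.13 and Itga5, of the fibronectin receptor, by 2.09. With VEGF Trap against hFc 2 of 22 fell, Itga1 by 0.82 and Itga5 by 0.61, where 2.43% of all genes fell. With Dll4-Fc against hFc Itgb3 rose by 0.53 and Itga9 fell by 0.38, where 3.06% of all genes rose and 1.52% fell. Of 19 other collagen maturation genes 7 rose and 1 fell with VEGF-A against hFc, among them Fkbp10 (1.1), Crtap (0.86) and Adamts2 (1.42), which fold or trim procollagen.

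Against VEGF Trap, 5 of 20 collagen maturation genes were higher with VEGF-A and 3 lower. Over all genes 10.6% were higher and 8.68% lower. The lower maturation genes included P4ha1 (−0.86) and P4ha2 (−1.04), the prolyl 4-hydroxylase subunits. P4ha2 was also the only maturation gene of 19 tested that was called with VEGF Trap against hFc (0.73, adjusted p = 0.0253). In that comparison 1.3% of all genes rose and 2.43% fell. Of 36 further matrix genes 7 rose and 4 fell with VEGF-A against hFc, led by Col13a1 (2.00, adjusted p = 4.10e-07). Over all genes 5.89% rose and 4.3% fell. With Dll4-Fc against hFc 3.06% of all genes rose and 1.52% fell, and of the 36 listed 3 rose and 6 fell. Among those falls were Egfl6, a matrix protein of basement membranes (−2.83, adjusted p = 2.59e-09), and Spon1 (−0.75), and Vwf, an endothelial glycoprotein, rose by 0.77.

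Some members varied widely between arrays of a group. On hFc 4, Lama2, Col6a3, Col4a3, Col4a1, Col4a2 and Nid1 read 1.57, 1.65, 1.60, 0.81, 0.95 and 0.99, where hFc 1 to 3 read at most 0.09. Without hFc 4, Col6a3 was called with VEGF-A against hFc (1.38 in place of 0.76, adjusted p = 0.0012), Lama2 gave −0.21 in place of −0.61 and Col4a3 0.36 in place of −0.14. With Dll4-Fc against hFc, Col4a1 then gave 0.30 in place of −0.12, Col6a3 0.66 in place of 0.04 and Lama2 −0.18 in place of −0.58, none called. On that array the mean of 9 lens genes was 1.3, against −2.77 to −2.64 on hFc 1 to 3, and Pitx3, a lens transcription factor named after its values were seen, read 2.26. VEGF Trap 2 had a higher lens mean, 1.84, with Pitx3 at −0.86 and Col4a1 at −1.38. The lens of the eye sits in a thick basement membrane capsule, and the part of lens tissue in these values was not tested.

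Leaving out the 7 arrays with a lens mean above −1, chosen after the data were seen, left 13 members higher and none lower between VEGF-A and hFc. Over all genes 5.11% were then called, against 10.2% with all arrays. Lox, Col1a1, Col8a1 and Bgn were then not called (−0.70, 1.22, 0.67 and 0.53, adjusted p = 0.104, 0.07, 0.139 and 0.205), and Col6a3 was (1.21, adjusted p = 0.0127). Lama4, Col4a1, Nid1, Nid2 and Col15a1 then gave 1.93, 1.95, 1.73, 2.12 and 2.18 (adjusted p = 2.35e-05, 0.000189, 5.75e-05, 0.000167 and 0.00164). That leaves 1 Dll4-Fc and 1 VEGF Trap array, each assumed to vary like the other groups. A call lost or kept in their comparisons is therefore no test of lens tissue. Calls there were fewer, among members and over all genes, and only changes are given. Between VEGF-A and VEGF Trap the 4 lower members Lox, Col6a1, Col6a2 and Plod2 gave −0.58, −0.86, −0.42 and −0.49. Of the higher members, Thbs1 gave 1.46, Postn 1.06, Bgn 0.90, Loxl2 0.71, Fn1 0.57 and Sparc 0.36. No value called with all arrays changed sign in any comparison.

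Fbln1, a fibulin of elastic and basement membrane matrix, read −2.28, −0.55, −0.41 and 0.24 on hFc 1 to 4, 0.49, 0.62, −0.54 and 0.74 on Dll4-Fc 1 to 4, 0.61, 0.06, 1.12, −2.65 and −3.03 on VEGF-A 1 to 5 and 0.72, 1.04 and 0.4 on VEGF Trap 1 to 3. VEGF-A 4, VEGF-A 5 and hFc 1 were far below the rest. The same arrays were lowest in Vcan (−1.49, −1.83 and −1.58), and VEGF-A 4 and 5 were lowest in Fbln2 (−1.68 and −1.88). Best2 and Optc, genes of the ciliary body named after their values were seen, read −3.64 and −2.66 on VEGF-A 4, −3.25 and −2.70 on VEGF-A 5 and −2.79 and −2.93 on hFc 1, and at least −0.50 on every other array. Without these 3 arrays 11 members rose and 1 fell with VEGF-A against hFc. Over all genes 8.02% were then called, against 10.2% with all arrays. Their part in the values of Fbln1 was not tested.

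Dcn (decorin) and Lum (lumican), proteoglycans of sclera and cornea, read 2.2 and 2.43 on VEGF Trap 2 and 1.70 and 1.31 on Dll4-Fc 4, the highest values of each. The mean of 8 pigment epithelium and choroid genes was also highest there, at 0.83 and 0.69, beside −0.84 to 0.17 on the other arrays. Neither gene was called in any comparison, and the part of that tissue was not tested. Of 9 fibroblast markers 1 rose and 1 fell with VEGF-A against hFc, where 5.89% of all genes rose and 4.3% fell.

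**Figure D5:**
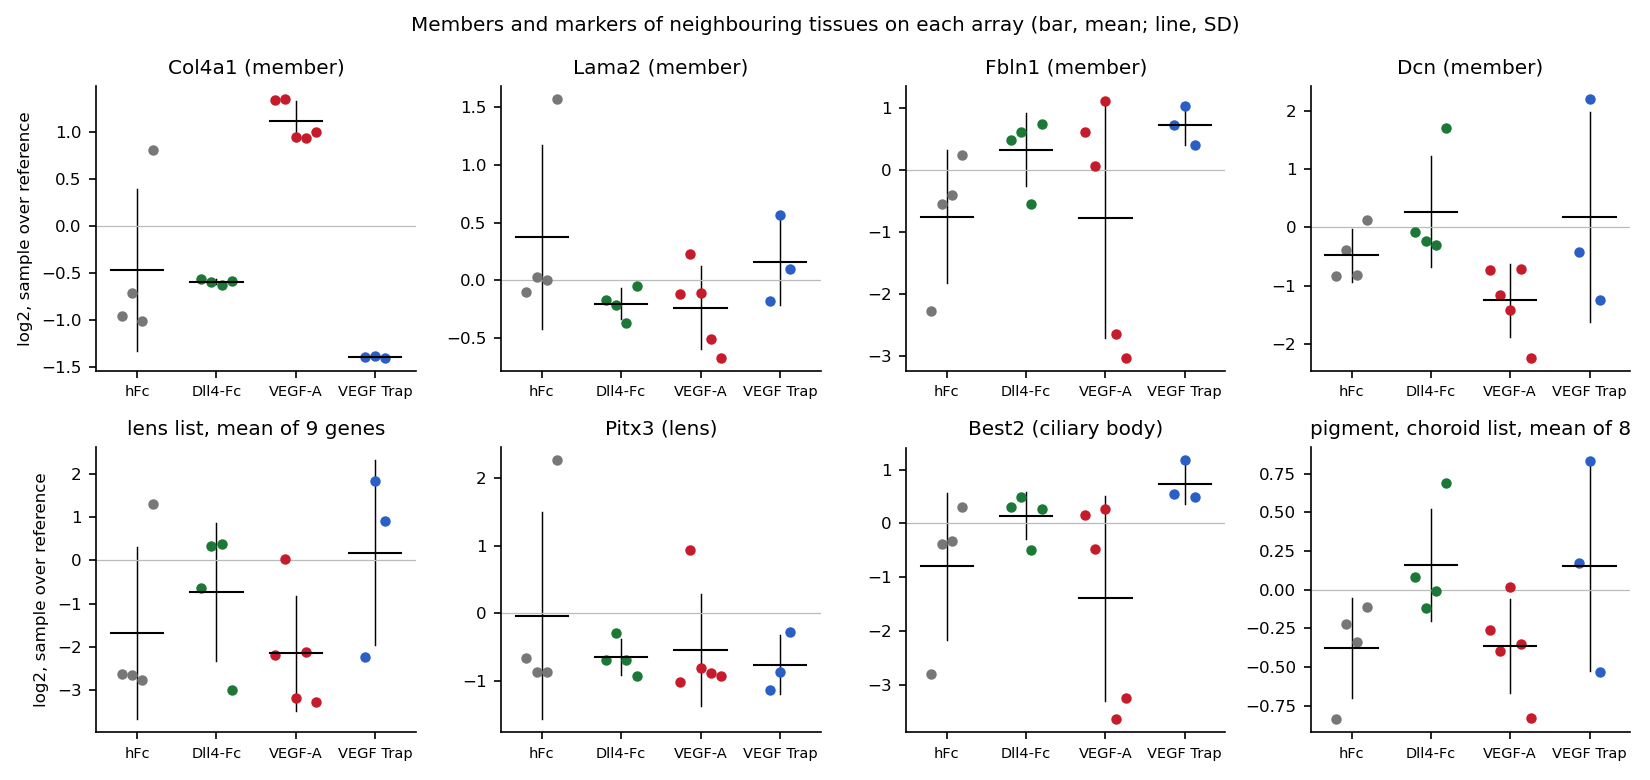
Log2 of sample over reference pool (vertical axes, scales differ) by treatment group for 4 members and for markers of neighbouring tissues, each point an array in replicate order, with the group mean as a bar and the SD as a line. The high hFc point of Col4a1 (0.81) is the array with a lens mean of 1.3, the 3 low points of Fbln1 are those of Best2, and the high points of Dcn (2.2 and 1.70) are those of the pigment epithelium and choroid list.

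Perlecan lies outside the rule, since its probes carry an old accession in place of a symbol. The probe A_51_P355801 read −0.80, −0.70, −0.67 and 1.55 on hFc 1 to 4, −0.17, 0.27, −0.33 and −0.14 on Dll4-Fc 1 to 4, 0.75, 1.03, 0.40, 0.48 and 0.06 on VEGF-A 1 to 5 and −1.35, −0.74 and −1.29 on VEGF Trap 1 to 3. As with Lama2 and Col6a3, hFc 4 was the highest array of all. Its difference was 0.70 between VEGF-A and hFc (adjusted p = 0.326 over 39787 probes) and 1.67 between VEGF-A and VEGF Trap (adjusted p = 0.0145). The brighter probe (A_52_P422859) had a value on hFc 4 alone among the controls, 1.66, and gave −1.05 against hFc (adjusted p = 0.0794), the opposite sign. Its difference between VEGF-A and VEGF Trap, which holds no hFc value, was 1.77 (adjusted p = 0.000166). The p-values of the 2 probes are not alike in basis. The spread used for A_51_P355801 includes hFc 1 to 4, and that for the brighter probe gains nothing from its lone hFc value.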

How the data were processed

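Total RNA of 16 retina samples was measured on 2-colour Agilent arrays. Members and gene lists were chosen with earlier results of these data known. Per the file headers, the deposited scanner files held a log10 ratio of Cy5 over Cy3 after the scanner software's background and dye correction, spot intensity in each channel, and other flags (outlier, well above background). The deposited series table held, by its match to the scanner values, the natural log of sample over reference, and served as an alternative. The sign was turned to sample over reference and put on the log2 scale. Control and outlier spots were left out, spots of a probe averaged, and 39787 of 43426 probes kept that were well above background on at least 3 arrays. The brightest probe stood for a gene, by symbol or older symbol. A 4-group model was fitted with limma 3.58.1 in R 4.3.3 and p-values were adjusted by Benjamini-Hochberg over all genes, with 0.05 as the threshold. It was also run on simulated data with independent noise in each gene. Those data hold no shift common to an array or slide, so they cannot show how such shifts affect the calls. Values on every array are given for the called members with the 6 largest rises and 6 largest falls in each comparison with hFc and between VEGF-A and VEGF Trap, and at most 3 called genes of lowest p are named from each other list. Fbln1 and perlecan were added after their values were seen. Alternatives were normexp with loess, Cy3 alone, the series table, other filters, the mean over probes, hFc 1 and 2 averaged, slide as a block, single slides and each array left out. Leaving out arrays by lens or ciliary body genes was chosen after seeing the data. Promoter windows came from RefSeq (GRCm38.p6).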

Additional observations from a re-analysis of the deposited data

Results flagged for a closer look

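Of 137 sets of 4 or 5 arrays examined, 12 held 1 array far from the rest of its group, where chance gives about 1 in 20, or 6.8. On hFc 4 this was so for Col4a1 (0.81, others −1.01 to −0.71), Col4a2 (0.95, others −0.75 to −0.60), Lama2 (1.57, others −0.10 to 0.03), Nid1 (0.99, others −0.94 to −0.74) and Col6a3 (1.65, others −0.96 to −0.70). On hFc 1, Lama3 read 0.34 (others 0 to 0.06) and Thbs1 −1.63 (others −0.79 to −0.64). Among Dll4-Fc arrays, Col4a4 read −0.02 on array 1 (others 0.12 to 0.14), Fbln2 −0.57 on array 3 (others −0.02 to 0.09) and Dcn 1.70 on array 4 (others −0.31 to −0.08). With VEGF-A, Lamb1 read 0.90 on array 3 (others 0.36 to 0.42) and Col6a2 −1.27 on array 2 (others −0.37 to −0.06).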

How the results depend on the processing

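Under each alternative listed in the processing in which they had a value, except those that leave out arrays by lens or ciliary body genes, 10 of 16 members stayed called between VEGF-A and hFc (among them Lama4, Lamb1, Lamc1, Col4a1, Nid2 and Col15a1), 10 of 20 between VEGF-A and VEGF Trap, 11 of 17 between Dll4-Fc and VEGF-A, 2 of 5 between Dll4-Fc and hFc and 1 of 2 between VEGF Trap and hFc, and no called value changed sign. A band of 172 of the 532 array rows held a share of outlier spots above 0.1 on at least 1 hFc array. With the band of array rows left out, 14 of those 16 had a value (not Lamb1 and Lamc1), 17 of 20 and 14 of 17. With single arrays left out, members called ranged from 12 to 17 for VEGF-A against hFc, 3 to 5 for Dll4-Fc against hFc (3 without hFc 1 or Dll4-Fc 1), 2 to 4 for VEGF Trap against hFc (4 without hFc 4), 18 to 21 for VEGF-A against VEGF Trap and 15 to 20 for Dll4-Fc against VEGF-A. For Dll4-Fc against hFc 2 were called with Cy3 alone and 2 with the mean over probes. For VEGF Trap against hFc 5 were called with normexp and loess, 4 with the series table and 1 with the mean over probes. On the second shared slide alone, where 1 VEGF Trap array is assumed to vary like the others, 13 were called between VEGF-A and VEGF Trap. The cause of these shifts was not tested.

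Without the 7 arrays high in lens genes, where 1 Dll4-Fc and 1 VEGF Trap array are assumed to vary like the others, 1 member was called for Dll4-Fc against hFc, 0 for VEGF Trap against hFc (limma, 9 with an unadjusted p under 0.05), 11 for VEGF-A against VEGF Trap and 10 for Dll4-Fc against VEGF-A. Without the 3 arrays low in Best2 and Optc, 3 were called for Dll4-Fc against hFc. Without both sets, 6 arrays were left, of which 2 were hFc, 2 VEGF-A, 1 Dll4-Fc and 1 VEGF Trap. For VEGF-A against hFc 2 members were then called. Over all genes 0.682% were called, against 10.2% with all arrays, so the loss was not particular to the members. In the other comparisons, which rest on a group of 1 array, calls were fewer too, among members and over all genes. No value called with all arrays changed sign. No paired analysis was possible because only VEGF-A 4 and VEGF Trap 3 share the first part of a title code across groups, which gives 1 pair. The small number of arrays limits the precision.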
